A study of Rattus norvegicus with 4 samples.

Results

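Open reading frames (ORFs) that the deposited ORF table places outside known coding annotation were described here in 2 sets that were kept apart throughout. These were 461 ORFs on 393 genes typed as pseudogenes, and 347 ORFs on 227 genes typed as protein coding. Both sets came from 18847 ORFs with ribosome footprints. They were picked by the ORF class for such frames and by the gene type, without use of any change between conditions. The class does not exclude that another annotation lists a protein for the gene, or that an ORF shares residues with an annotated one. The cells were neonatal rat ventricular cardiomyocytes of Sprague-Dawley rats at postnatal day 2, with non-cardiomyocytes reduced by preplating. They carried no genetic change and were either left untreated (control, 2 libraries) or given phenylephrine (PE), an α1-adrenergic agonist that makes cultured cardiomyocytes grow, at 20 µM for 24 h (2 libraries). The comparison asked on which of these ORFs the footprints differed after PE.

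Ribosome profiling sequences the short RNA pieces that ribosomes cover, so a footprint count rises with the amount of an mRNA as well as with its translation. RNA-seq was not analysed here, and these contributions cannot be told apart. A pseudogene is a copy of a gene that is taken to have lost its protein. A processed pseudogene arose from a reverse-transcribed mRNA and can stay nearly identical to its parent, while an unprocessed one arose by duplication. On a protein-coding gene, a transcript with a retained intron or another noncoding label is assigned no protein by the annotation, although it can share most of its exons with a coding transcript. Translation of small ORFs upstream of a main coding sequence is a known layer of control in stressed cells.

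The libraries held 11446574 and 13827599 footprint counts in control and 12117629 and 12537740 in PE over all listed ORFs. Counts of replicates varied beyond sampling (chi-square over degrees of freedom 1.62 for the control pair, 1.60 for the PE pair). Separate cultures are not stated in the labels, and a p-value therefore reflects the spread of these libraries alone, which may be technical. The defining cardiomyocyte markers were present: 10 of 12 had counts, with a summed level of 62223 to 62478 CPM (counts scaled to library size with TMM factors) in control and 57828 to 58287 in PE, while Myl2 and Ttn were at 0 or not listed. Of these 10, 3 were higher and 7 lower in PE. For comparison with this and the marker lists below, 21.4% of all ORFs tested were higher and 21.3% lower (adjusted p under 0.05 in edgeR). All 8 fibroblast markers had counts too, and their sum was 34404 to 34672 CPM in control and 20814 to 21049 in PE, with 1 higher and 5 lower. Markers of endothelium (4 of 5 with counts, Pecam1 at 0 or not listed, 2 lower), smooth muscle and pericytes (5 of 5, 1 higher and 4 lower) and leukocytes (5 of 5, 4 lower) summed to 193 to 201, 1171 to 1201 and 436 to 456 CPM in control and to 114 to 122, 1070 to 1077 and 306 CPM in PE. Fewer cells of a type and less RNA per cell cannot be told apart in such cultures, and the part of cell mixture in the changes below was not tested.

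The deposited annotation assigns P-sites (inferred places of the ribosomal peptidyl site) to each ORF, and a separate file gives footprint counts per library. On these 2 measures the unannotated ORFs stood far from the annotated ones. Pseudogene ORFs held 960275 P-sites, 1.49% of all, and 50306 counts, 0.101% of all. Coding-gene ORFs held 338739 P-sites (0.526%) and 27120 counts (0.0543%). The median was 0.00105 counts per P-site on pseudogenes and 0 on coding genes, against 1.14 for annotated ORFs. How the counting program shared reads among overlapping ORFs and repeated sequences is not given in the sources used here.

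P-sites without any count were common in both sets. Counts were 0 in all 4 libraries for 196 of 461 pseudogene ORFs (42.5%) and for 273 of 347 coding-gene ORFs (78.7%). Among annotated ORFs this was so for 1807 of 15034, and among such ORFs on other genes for 188 of 369 (50.9%). The ORFs with 0 counts were not poor in P-sites, with a median of 296.5 and a range of 12 to 17044 on pseudogenes and a median of 300.0 and a range of 7 to 24076 on coding genes. At least 1000 P-sites stood on 42 and 58 of them. They held 23.7% of the P-sites of the pseudogene set and 79.4% of those of the coding-gene set. A count of 0 allows up to 3 counts, or 0.214 to 0.258 CPM depending on the library, which covers counting error only. It says how many reads were assigned to the ORF, not how many ribosomes stood there.

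**Figure D1:**
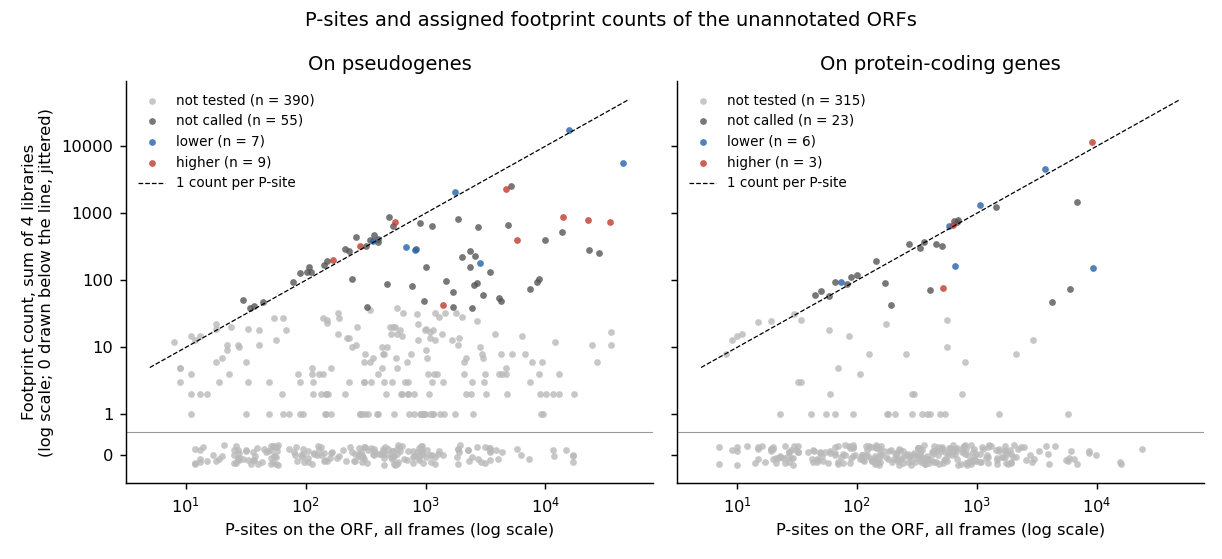
Each point is 1 unannotated ORF, with its P-sites on the x axis and its footprint count summed over 4 libraries on the y axis, both on log scales. ORFs at 0 counts (196 on pseudogenes, 273 on coding genes) are drawn below the grey line, and the dashed line marks 1 count per P-site, along which only part of the tested ORFs lie.

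Pooled over each set, the P-sites kept the reading frame. Of pooled P-sites, 83.4% were in frame 0 on pseudogenes and 83.9% on coding genes, against 84.8% on annotated ORFs. All 18847 ORFs of the authors' deposited table had a combined p-value for frame preference under 0.05, so these shares describe the list and test nothing. The unannotated ORFs were short, with a median of 133 amino acids (aa) on pseudogenes and 103 on coding genes, against 439 for annotated ORFs.

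Most pseudogene ORFs encoded a protein close to an annotated one. At 90% identity or more over at least 70% of the ORF, 279 of 461 had such a match, and 390 did at 70% identity. The share of ORFs under 0.5 counts per P-site went along with identity. It was 99.3% of the 148 ORFs at 97% identity or more, 96.9% of 131 ORFs from 90% to under 97%, and 91.9% of 111 ORFs from 70% to under 90%. It was 67.3% of 52 ORFs with a more distant or partial match and 47.4% of 19 ORFs to which no annotated protein aligned, and the last group had a median of 1.07 counts per P-site. ORFs at 0 counts occurred in every class, including 7 of those 19. The median share of P-sites in frame 0 was 83.6%, 84.2%, 84.1%, 80.5% and 73.3% in these classes, in the same order. The part of sequence identity in the low counts was not tested.

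Identical copies showed the mismatch most plainly. On pseudogenes, 34 ORFs in 16 groups encoded exactly the same protein as another member, the groups had equal P-sites in 15 cases, and all 34 ORFs had 0 counts. LOC100910474, LOC102551071 and AABR07019663.1 form 1 such group: each is a 151-aa ORF on chromosome 13 with 17044 P-sites and 0 counts, 91.4% identical to the myosin light chain Myl6. Annotated Myl6 itself had 64238 P-sites but counts of only 243 and 335 in control and 462 and 436 in PE. AABR07064061.1 (355 aa, chr6:62797296-62798363) had 14838 P-sites, the same number as the identical protein of Ndufa10l1, a relative of a respiratory complex I subunit, and both had 0 counts. AABR07027322.1 (202 aa, chr17:24610493-24611103, 98.5% identical to ribosomal protein Rpl13a) had 11695 P-sites, and it and annotated Rpl13a had 0 counts. These 5 were the pseudogene ORFs with most P-sites at 0 counts.

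**Figure D2:**
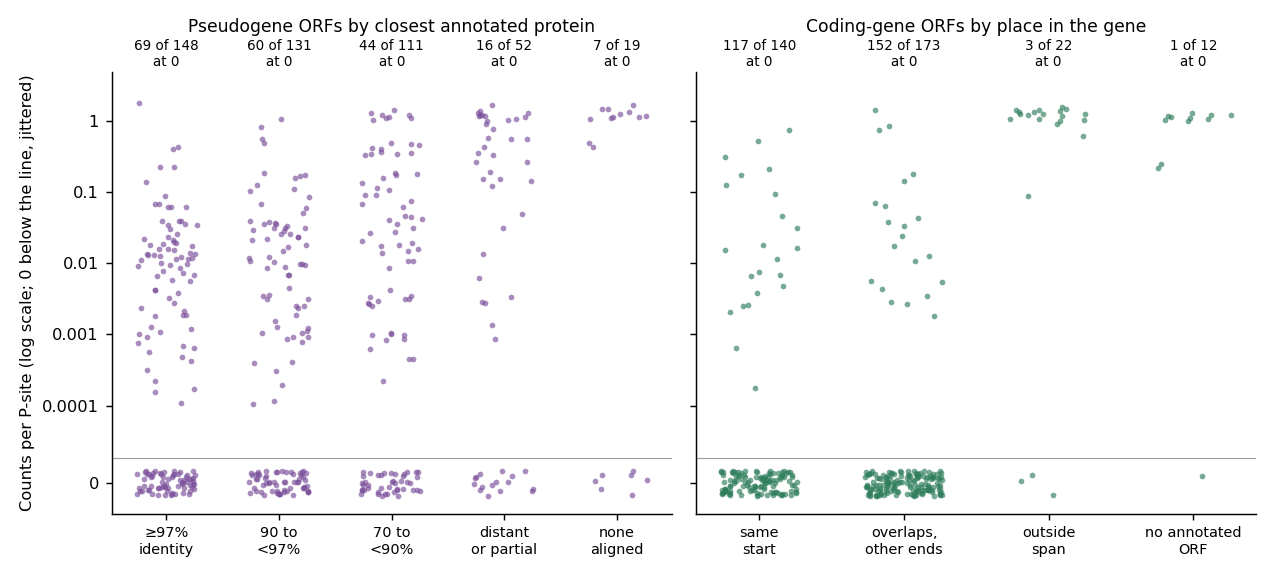
Points are unannotated ORFs, with counts per P-site on a log y axis and ORFs at 0 below the grey line. Left, pseudogene ORFs fall by the identity of the closest annotated protein, and most points near 1 lie in the distant and unaligned classes. Right, coding-gene ORFs fall by their place relative to the annotated ORFs of the gene, and those outside an annotated span or on a gene with none cluster near 1.

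The closest proteins of the pseudogene ORFs, whatever the type of pseudogene, were sorted into families that are frequent parents of processed pseudogenes. Of the 390 ORFs aligned at 70% identity or more, 38 matched ribosomal proteins, 17 mitochondrial proteins, 13 glycolytic enzymes, 9 chromatin and nucleolar proteins, 8 translation factors, 5 chaperones, 4 actin or tubulin proteins, 2 ubiquitin-related proteins and none ferritin, while 294 matched other proteins. Ribosomal protein copies carried 63461 P-sites and 228 counts, and glycolytic copies 85687 P-sites and 409 counts. Few could be tested: 1 ribosomal, 4 mitochondrial, 1 glycolytic, 2 chromatin, 1 translation factor, 1 ubiquitin-related ORF and no chaperone, actin or tubulin ORF. The calls were 1 lower (ribosomal), 1 lower (ubiquitin), 1 higher (mitochondrial), 1 higher (glycolysis), and 5 higher and 3 lower among the other proteins. Of all ORFs tested, 21.4% were higher and 21.3% lower. The ribosomal and the ubiquitin call were on genes not typed as processed pseudogenes.

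Of the 461 pseudogene ORFs, 71 passed the filter on low counts, 194 had counts but too few, and 196 had none. Of the 71, 9 rose and 7 fell after PE at an adjusted p under 0.05 (quasi-likelihood test of edgeR, Benjamini-Hochberg adjustment over all 12609 ORFs tested), while 42.7% of all ORFs tested were called, 21.4% higher and 21.3% lower. The median log2 fold change of the 71 was 0.16, against 0.00 for all ORFs tested. Groups did not overlap in 38 of the 71 (53.5%), against 68.6% of all ORFs. Of the 71, 42 had under 0.5 counts per P-site, as did 10 of the 16 called. Among the 29 with 0.5 or more, 3 rose and 3 fell. DESeq2 called 6 of the 16, AABR07073038.1, AABR07006310.1, AABR07053500.1, AABR07039092.1, Ubb and LOC100361067, and the other 10 did not pass there. When some library was left out, 9 of the 16 lost the call.

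The pseudogene ORF with the highest level was AABR07073038.1 (355 aa, chr4:118327533-118328602, minus strand). Its closest protein among the annotated ORFs listed here, at 80.4% identity, is the poly(C)-RNA-binding protein Pcbp2. Proteins outside that list were not searched, so a closer relative may exist. It had 4319 and 5106 counts in control and 3982 and 4126 in PE, or 368 ± 5.53 and 334 ± 1.72 CPM (SD, n = 2). The groups did not overlap, and the fall was small, with a log2 fold change of -0.14 ± 0.03 (SE, adjusted p = 0.00011 in edgeR). Its 1.12 counts per P-site were close to the 1.14 of the median annotated ORF. Annotated Pcbp2 had 981 and 1241 counts in control and 1186 and 1251 in PE, with a log2 fold change of 0.21 ± 0.05 (adjusted p = 0.0011 in edgeR). The direction of the 2 ORFs was opposite, and their difference was not tested. Whether Pcbp2 is the parent of this ORF was not tested either.

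AABR07006310.1 (669 aa, chr1:228725014-228727024) aligned to no annotated protein and had 1.16 counts per P-site. Its counts were 635 and 672 in control and 367 and 370 in PE, or 51.3 ± 4.78 and 30.3 ± 0.432 CPM. Both PE libraries lay well below both controls, with a log2 fold change of -0.75 ± 0.08 (adjusted p = 3.5e-09 in edgeR). AABR07053500.1 (150 aa, chr3:110540717-110541170) matched only in part a single annotated protein, Inafm1, over 55.3% of its length. It had 35 and 30 counts in control and 67 and 71 in PE, and rose by 1.16 ± 0.26 on the log2 scale (adjusted p = 0.00041 in edgeR). AABR07039092.1 (216 aa, chromosome X, 67980669 to 67981319) was 89.9% identical to the glycolytic enzyme Eno1 and had 61 and 58 counts in control and 91 and 112 in PE. It rose by 0.84 ± 0.20 (adjusted p = 0.00089 in edgeR), and annotated Eno1 rose by 0.58 ± 0.06 (adjusted p = 2.3e-10). These 3 ORFs had over 1 count per P-site and kept the call under every alternative run.

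The annotation types several genes as pseudogenes for which RefSeq (GRCr8, matched only by symbol or an unambiguous synonym) lists a protein. Of the 393 genes, 34 matched a RefSeq name, 21 as protein coding and 13 as pseudogenes. The 21 carried 24 ORFs, of which 9 had 0 counts and 9 had 0.5 or more counts per P-site, with a median of 0.0461. Of the 24, 11 were tested and 3 were called, against 42.7% called among all ORFs tested. Ubb, a polyubiquitin gene, carried a 225-aa ORF (chr10:48881061-48881747) with 1465 and 1890 counts in control and 1185 and 1095 in PE, or 130 ± 6.09 and 93.9 ± 7.12 CPM. The 2 groups did not overlap, and it fell by 0.48 ± 0.05 on the log2 scale (adjusted p = 3.9e-09 in edgeR). It held 44269 P-sites and only 0.127 counts per P-site. Its counts are uncertain, because polyubiquitin genes are built of near-identical repeats.

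Ier2, an immediate early gene, carried a 107-aa ORF (chr19:25775212-25775582) with 145 and 186 counts in control and 180 and 232 in PE. The ranges overlapped in raw counts but not in CPM, at 12.9 ± 0.549 and 16.9 ± 2.69, with a log2 fold change of 0.39 ± 0.13 (adjusted p = 0.016 in edgeR). This call was lost with the trend of log2 fold change on ORF length removed, a setting chosen after seeing the data. Without PE replicate 2 the value was 0.22 (adjusted p = 0.32), and without control replicate 1 it was 0.35 (adjusted p = 0.062). LOC100362400, identical to ribosomal protein Rpl13, fell by 0.76 ± 0.27 (adjusted p = 0.022 in edgeR) from 55 and 59 to 29 and 35 counts. Its adjusted p was 0.13 without PE replicate 1 and 0.10 without control replicate 1, and annotated Rpl13 had counts of only 2 and 0 in control and 2 and 4 in PE. Slc25a6, a mitochondrial ADP/ATP carrier, had 17144 P-sites, counts of 0 and 0 in control and 2 and 0 in PE, and a 96.0% identical relative, Slc25a5. The selenophosphate synthetase Sephs2 (109 and 140 counts, then 104 and 124), the thiol dioxygenase Ado (94 and 87, then 117 and 101) and Itpripl2 (127 and 199, then 144 and 170) each had over 1 count per P-site, and log2 fold changes of -0.05, 0.34 and 0.03 that did not pass the test.

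The remaining calls were on ORFs with under 0.5 counts per P-site, except AABR07026012.1. LOC100361067 (255 aa, 99.2% identical to the proteasome subunit Psma3l, 0.0620 counts per P-site) had 178 and 180 counts in control and 219 and 287 in PE and rose by 0.57 ± 0.13 (adjusted p = 0.00053 in edgeR). Annotated Psma3l had 0.0791 counts per P-site and a log2 fold change of 0.20 ± 0.10 that did not pass (adjusted p = 0.12 in edgeR). Their difference was not tested. AABR07044420.2 (81 aa) had 96 and 101, then 59 and 58 counts, and fell by 0.68 ± 0.20 (adjusted p = 0.0060 in edgeR). LOC100361067 and AABR07044420.2 kept the call whichever library was left out, although AABR07044420.2 did not pass in DESeq2 (adjusted p = 0.089). A further 7 lost the call with at least 1 library left out. Of the 5 that had risen, AABR07015346.1 (83 aa, identical to Cox7a2l2) had a log2 fold change of 0.49 and lost the call without control replicate 2 (adjusted p = 0.056 in edgeR). AABR07021823.1 (638 aa, closest to the SUMO-activating enzyme subunit Uba2) had 0.50 and lost it without any library but control replicate 2 (adjusted p up to 0.077). AABR07043421.1 (767 aa), AABR07010649.1 (290 aa) and AABR07067506.1 (153 aa, identical to Arpc5l) had 0.31, 0.18 and 1.43 and lost it without any of the 4 (adjusted p up to 0.22, 0.18 and 0.18). Of the 2 that had fallen, AABR07033657.1 (167 aa) had -0.60 and lost the call without PE replicate 2 or control replicate 2 (adjusted p up to 0.18). AABR07026012.1 (425 aa, no aligned protein) had -0.42 and lost it without any of the 4 (adjusted p up to 0.20). AABR07010649.1 also lost the call with library totals alone, without the filter on low counts, and with the trend on ORF length removed. AABR07043421.1 also lost it with library totals alone, and AABR07067506.1 without the filter. AABR07026012.1 also lost it with the length trend removed and when only ORFs of at least 0.5 counts per P-site were used. AABR07067506.1, with 5, 7, 16 and 15 counts, lay below the mean count set for named ORFs and was added after its values were seen. Among the 5 highest levels, AC095947.1 (56 aa, no aligned protein), with 592 and 731 counts in control and 619 and 602 in PE, had overlapping groups and a log2 fold change of -0.04 (adjusted p = 0.72 in edgeR).

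**Figure D3:**
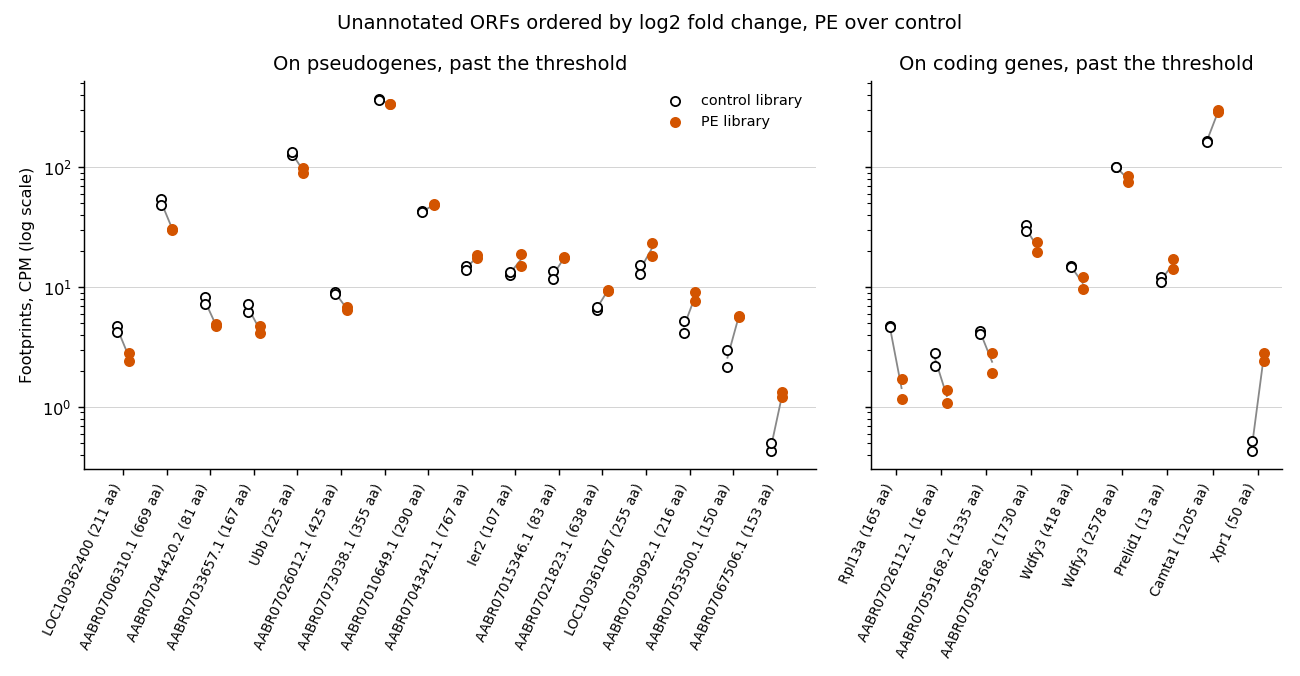
CPM (log y axis) of the 16 pseudogene ORFs and 9 coding-gene ORFs past the threshold, with white circles for the 2 control libraries, orange circles for the 2 PE libraries and a line between group means. Group means span from 0.465 CPM (AABR07067506.1 in control) to 368 CPM (AABR07073038.1 in control), and circles of the 2 colours do not overlap in any of these ORFs.

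Unannotated ORFs on coding genes fell into 4 places. Of 347, 140 began at the start codon of an annotated ORF of the gene and 173 overlapped the genome span of one with another start and stop. In these classes 117 and 152 ORFs had 0 counts, and 4 and 5 were tested. The 140 shared a median of 91.4% of their residues in 1 run with the annotated protein, and a median of 15 residues at the end were their own, with none in 20 ORFs. A further 22 lay outside the span of every annotated ORF and 12 on genes with no annotated ORF in the table. Only 3 and 1 of those had 0 counts, 14 and 9 were tested, and their medians were 1.21 and 1.08 counts per P-site. Retained-intron transcripts carried 240 of the ORFs, 205 of them at 0, and processed transcripts 107, 68 of them at 0. Overlap with the genome span of an annotated ORF, introns included, went with low counts here. Shared exons were not measured, and their part was not tested.

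Several coding-gene ORFs with 0 counts carried many P-sites. The 156-aa ORF of Msn, the membrane-cytoskeleton linker moesin, lies wholly within the annotated protein and had 16033 P-sites. A 277-aa ORF of the chaperonin subunit Cct3 had 15720 and an 89-aa ORF of the ribosomal protein gene Rps4x had 9815, beside an annotated Rps4x ORF whose counts were 0, 0, 1 and 0. A 119-aa ORF of LOC100911417 had 8546, and the ATP synthase gene Atp5pb carries an identical protein with the same 8546. Both of these genes also had 0 counts on their annotated ORFs, which held 42663 P-sites each.

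Of the 347 coding-gene ORFs, 32 passed the filter, and 3 rose and 6 fell at an adjusted p under 0.05 (quasi-likelihood test of edgeR, Benjamini-Hochberg adjustment), against 42.7% of all ORFs tested called. The median log2 fold change of the 32 was -0.09. Groups did not overlap in 20 of them (62.5%, against 68.6% of all). Of the 32, 8 had under 0.5 counts per P-site, as did 3 of the 9 called. DESeq2 called 5 of the 9, those of Camta1, Xpr1 and Rpl13a, the 1730-aa ORF of AABR07059168.2 and the 2578-aa ORF of Wdfy3, and the other 4 did not pass there. When some library was left out, 4 of the 9 lost the call.

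Camta1, a calmodulin-binding transcription activator, carried the coding-gene ORF of the highest level. It is 1205 aa long (chr5:168141544-168227998, minus strand, 1.24 counts per P-site) and lies 3' of the only listed annotated ORF of the gene, which has 80 aa. Counts were 1917 and 2279 in control and 3467 and 3701 in PE, or 164 ± 1.82 and 295 ± 7.73 CPM. The groups were far apart, and the ORF rose by 0.85 ± 0.03 on the log2 scale (adjusted p = 9.3e-20 in edgeR), a call that every alternative kept. The 80-aa ORF had 15 and 26 counts in control and 14 and 18 in PE, with a log2 fold change of -0.27 ± 0.41. The difference between both ORFs, 1.13 ± 0.40, did not pass the test across pairs (adjusted p = 0.069 in edgeR).

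Xpr1, a phosphate exporter, showed the largest log2 change of the coding-gene ORFs called, on few counts. Its 50-aa ORF (chr13:73056623-73056775, minus strand) begins upstream of the annotated start and overlaps the annotated span by 68 of its 153 bases. Counts were 6 and 6 in control and 29 and 35 in PE, or 0.472 ± 0.0628 and 2.63 ± 0.297 CPM. The groups did not overlap, and it rose by 2.47 ± 0.45 (adjusted p = 3.7e-05 in edgeR). Only 25.3% of its P-sites were in frame 0, far below the 83.9% of the set, and it had 0.146 counts per P-site. Annotated Xpr1 (696 aa) had 830 and 991 counts in control and 1614 and 1635 in PE and rose by 0.91 ± 0.05. How many of its reads belong to the annotated frame on the shared bases was not tested.

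Prelid1, which carries lipids between mitochondrial membranes, had a 13-aa ORF (chr17:9837246-9837287, minus strand) whose end lies 102 bases from the annotated start in the genome, with 97.5% of P-sites in frame 0. Counts were 140 and 154 in control and 169 and 212 in PE, or 11.5 ± 0.759 and 15.7 ± 2.19 CPM. It rose by 0.45 ± 0.14 (adjusted p = 0.0082 in edgeR), and the annotated ORF by 0.31 ± 0.12 (adjusted p = 0.035). The adjusted p was 0.18 without PE replicate 2, 0.072 without control replicate 2 and 0.46 with the trend on ORF length removed, a setting chosen after seeing the data. A 16-aa ORF of AABR07026112.1, whose end lies 20 bases from the annotated ORF in the genome, had 33 and 31 counts in control and 13 and 17 in PE and fell by 1.02 ± 0.38 (adjusted p = 0.030 in edgeR). It did not pass without PE replicate 1, PE replicate 2 or control replicate 1 (adjusted p = 0.15, 0.053 and 0.21).

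The 165-aa ORF of Rpl13a (chr1:101121163-101123387, minus strand), a ribosomal protein gene, shares its first 134 residues with the annotated protein and ends in 31 of its own. It had 55 and 65 counts in control and 14 and 21 in PE, or 4.68 ± 0.0715 and 1.44 ± 0.379 CPM. It fell by 1.69 ± 0.31 (adjusted p = 2.7e-05 in edgeR), a call kept under every alternative in which it was tested. These counts are a small remainder of its 9345 P-sites (0.0166 counts per P-site), and the annotated Rpl13a ORF had 17176 P-sites and 0 counts, so the change of the gene's main product cannot be read from them.

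Long coding genes without an annotated ORF in the table appeared as several unannotated ORFs in a row on 1 transcript. Wdfy3, a scaffold of selective autophagy, had 3 tested ORFs of 310, 2578 and 418 aa, in that order from the 5' end. The 310-aa ORF had 82 and 115 counts in control and 83 and 96 in PE, with a log2 fold change of -0.06 ± 0.18. The 2578-aa ORF (chr14:9273018-9368791) had 1158 and 1405 counts, then 904 and 1030, and fell by 0.33 ± 0.06 (adjusted p = 9.6e-06 in edgeR). The 418-aa ORF had 174 and 208 counts, then 115 and 148, and fell by 0.46 ± 0.14 (adjusted p = 0.0080). Differences among these 3 ORFs were not tested. With the trend on ORF length removed, the value of the 2578-aa ORF was -0.02 (adjusted p = 0.85), and without PE replicate 1 that of the 418-aa ORF was -0.31 (adjusted p = 0.15).

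AABR07059168.2 carried ORFs of 1730, 429 and 1335 aa. The 1730-aa ORF (chr4:6083888-6257259) had 381 and 409 counts in control and 233 and 291 in PE, or 31.0 ± 2.58 and 21.5 ± 2.95 CPM, and fell by 0.52 ± 0.11 (adjusted p = 0.00014 in edgeR), kept under every alternative. The 1335-aa ORF, which was also under 0.5 counts per P-site, had 50 and 57 counts, then 23 and 35, and fell by 0.80 ± 0.28 (adjusted p = 0.021). It lost the call with the trend on ORF length removed. Its adjusted p was 0.21 without PE replicate 1 and 0.068 without control replicate 1. The 429-aa ORF, with counts of 16, 16, 0 and 11, had a log2 fold change of -1.45 ± 0.65 (adjusted p = 0.071). The 3 ORFs lay in the same direction, and 2 passed the test. Dop1b, a membrane traffic protein, had 2 ORFs of 943 and 1299 aa with 191 and 184, then 190 and 204 counts, and 180 and 246, then 210 and 161. Their groups overlapped, and neither log2 fold change, 0.14 ± 0.13 and -0.12 ± 0.13, passed the test. Hax1, an anti-apoptotic mitochondrial protein, had a 132-aa ORF with 147 and 211, then 182 and 189 counts, and a log2 fold change of 0.13 ± 0.13 that did not pass.

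**Figure D4:**
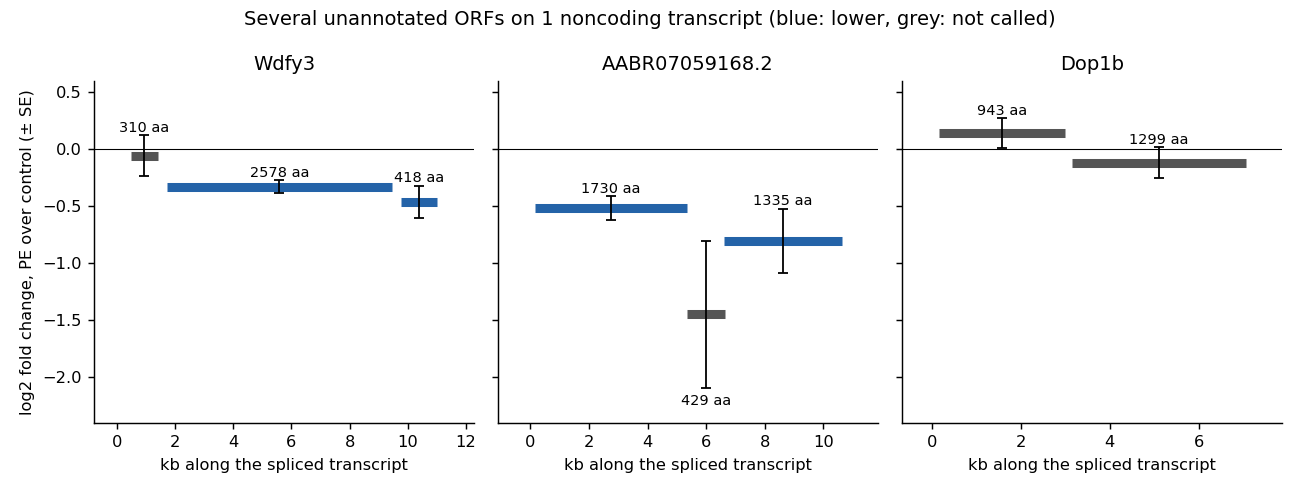
Horizontal bars are the tested unannotated ORFs of 3 coding genes with no annotated ORF in the table, placed by their position along the spliced transcript in kb, at the height of their log2 fold change of PE over control, with SE as vertical lines. The called ORFs (blue) of Wdfy3 and AABR07059168.2 lie at -0.33 to -0.80, and both Dop1b ORFs (grey) lie at 0.14 and -0.12.

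The last comparison asked whether an unannotated ORF changed unlike the annotated ORF of its own gene. In 19 pairs both had a mean count of at least 10, and the difference was tested as an interaction of ORF and treatment with a library term. Only 1 pair passed (5.26% of the pairs), and 6 had an unadjusted p under 0.05. The median difference was 0.17, and SEs of the differences ran from 0.18 to 0.86, so differences of moderate size were not detectable in most pairs. The pair past the threshold was Xpr1, whose unannotated ORF exceeded the annotated one by 1.55 ± 0.41 (adjusted p = 0.010 in edgeR), on ORFs that share bases. The adjusted p of that pair was 0.13 to 0.58 when any library was left out, with differences of 1.42 to 1.67.

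Elovl1, a very-long-chain fatty acid elongase, followed Camta1 in this order. Its 32-aa ORF ends 6 bases from the annotated span, with 10 and 9 counts in control and 16 and 23 in PE, and differed from the annotated ORF by 1.03 ± 0.39 (adjusted p = 0.069 in edgeR). The 21-aa ORF of the collagen gene Col4a4 lies 24 bases 5' of the annotated span and had 98 and 101 counts in control and 69 and 76 in PE. Its log2 fold change was -0.38 ± 0.19, beside -0.83 ± 0.07 on the annotated ORF, and the difference of 0.45 ± 0.19 did not pass (adjusted p = 0.11 in edgeR). RGD1565355, a Cd36-like gene, differed by 0.51 ± 0.23 (adjusted p = 0.13 in edgeR). Its unannotated ORF had 54.1% of P-sites in frame 0, and its annotated ORF had only 0.0231 counts per P-site. The long unannotated ORF of the kinesin Kif1b (1150 aa) had 349 and 374, then 402 and 331 counts, and differed from the annotated ORF by -0.29 ± 0.18. It shares its first 288 residues with an annotated protein of the gene and had 0.211 counts per P-site. That of the histone demethylase Kdm5c (428 aa) had 310 and 358, then 283 and 293 counts, and differed by 0.00 ± 0.18. It overlaps the annotated span, and sharing of reads in these pairs was not tested. Of the 22 ORFs outside an annotated span, 17 lay on the 5' side and 5 on the 3' side.

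**Figure D5:**
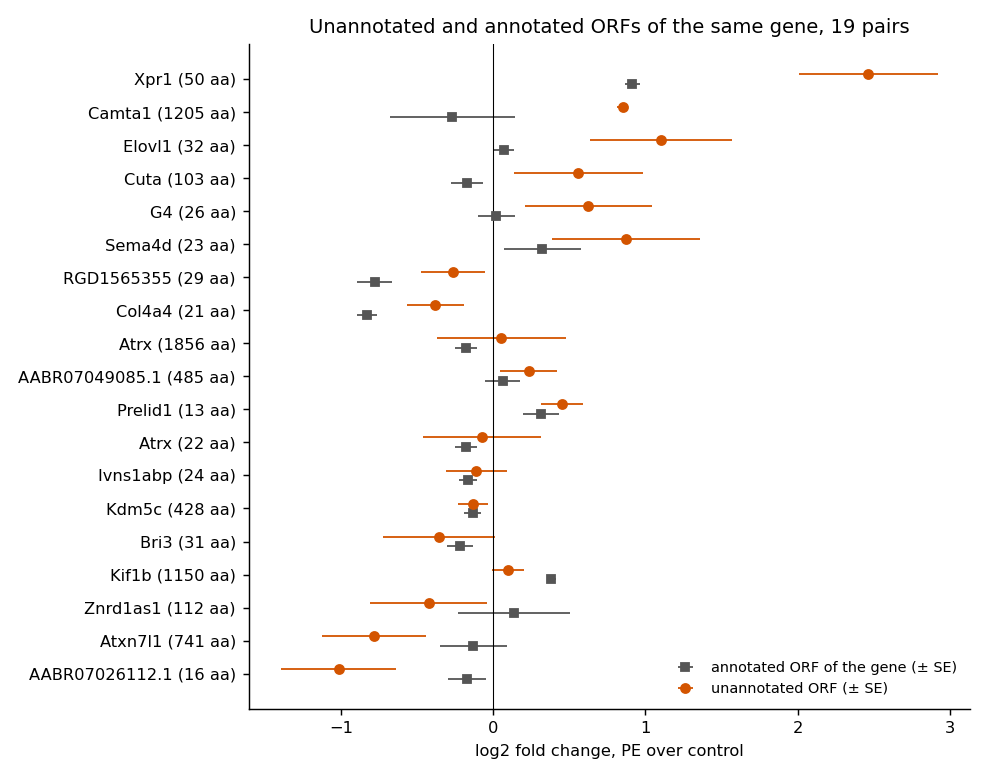
Log2 fold change of PE over control for the unannotated ORF (orange) and the annotated ORF (grey) of the same gene in 19 pairs, with SE as bars, ordered by the difference. The values of Xpr1 (2.47 against 0.91) and Camta1 (0.85 against -0.27) lie farthest apart.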

How the data were processed

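Ribosome footprints of 2 control and 2 PE libraries were used; groups come from the titles, since the treatment protocol text names PE for all. The submitters' processing notes name STAR 2.4.2a, Bowtie 1.1.2, cutadapt 2.0 and the Rnor_6.0 build. ORF caller and counter: not given in the sources used here. One table deposited by the authors holds a raw count per ORF and library. Per the file headers, the deposited annotation adds P-sites per frame, 1 value per ORF with no library named, a frame p-value, ORF length, and the authors' own comparison (mean normalized signal, log2 fold change, its standard error, test score, p-value), which gave no result here. Unused per-sample columns numbered 0. Coordinates are 1-based, introns included.

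The members and lists were chosen with earlier results of these data known. Counts were filtered with filterByExpr, scaled by TMM (factors 0.982 to 1.02) and tested by robust quasi-likelihood in edgeR 4.0.16 (R 4.3.3) over all 12609 ORFs that passed, with Benjamini-Hochberg adjustment and a threshold of 0.05. Small changes can pass, because edgeR's common biological coefficient of variation came to 2.18%. An exact permutation test of 2 against 2 libraries cannot reach that threshold. SE is the log2 fold change over the square root of F. DESeq2 1.42.0 was an alternative. ORF proteins were aligned to annotated ORF proteins with BLASTP 2.17.0 (expectation limit 0.001, or 1.0 with the short setting under 30 residues). Pairs joined an unannotated ORF to the annotated ORF of highest mean CPM of the gene, each with a mean count of at least 10. The scripts were tested on simulated data. Named ORFs, per set, were up to 10 highest and 10 lowest called ORFs whose groups did not overlap and whose mean count reached 20, the 5 of highest CPM, the 5 with most P-sites at 0 counts, their partners, and the 5 pairs of smallest p. The results of each marker and parent-family list are given once. Overlapping ORFs and near-identical copies can share reads, so their counts are uncertain. No ORF sequence is printed, and some ORFs and partners that the rule names are not reported here.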

Additional observations from a re-analysis of the deposited data

How the results depend on the processing

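RLE size factors, library totals alone, a filter at a mean count of 20 and no filter beyond a count above 0 kept the counts of called ORFs within 1.5 times. DESeq2 called 3446 of all ORFs, 6 on pseudogenes and 5 on coding genes, all of them among the 16 and 9. With only ORFs of at least 0.5 counts per P-site, 5 pseudogene ORFs were called, a set from which most called ORFs had been removed. Leaving out 1 library gave 10 to 11 calls on pseudogenes, of which 9 to 10 were among the 16, and 6 to 10 on coding genes. In all, 6 of 16 and 4 of 9 calls held under every alternative in which they were tested. Of the pairs, 0 of 7 passed at a mean count of at least 50, and 0 of 19 with any 1 library left out. Pseudogene ORFs with a close protein numbered 148 at 97% identity. Removing the trend of log2 fold change on ORF length, chosen after seeing the data, kept 13 of the 16 and 6 of the 9 calls. Replicate numbers did not pair the libraries (correlation of deviations of same-numbered libraries 0.0117), and with a replicate block 16 and 9 members and 5447 of all ORFs were called, while 0 pairs passed (Xpr1, adjusted p = 0.21). With 1 library left out, log2 fold changes ran from -0.079 to 0.0059 for AC095947.1 and from -0.074 to 0.25 for Kif1b, and the differences from the annotated ORF from -0.12 to 0.39 for Prelid1 and from -0.021 to 0.020 for Kdm5c, turning sign without passing a test. The cause of these shifts was not tested. Where an arm was left with 1 library, that library was assumed to vary like the other group. Low counts limit most members: 194 pseudogene and 42 coding-gene ORFs had counts but too few to test.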
